A study of Mus musculus with 26 samples.

Results

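Genes of meiosis and of the piRNA pathway were examined in mouse ES cells with and without ZFP57. The set held 34 genes, picked by symbol for their known roles in germ cells, with earlier results of these data known, out of 24409 genes in the expression table, and every one of the 34 had a row. ES cells are pluripotent cells grown from the inner cell mass of the early embryo. They were male C57BL/6J lines, derived from E2.5 embryos and kept in N2B27 medium with LIF and inhibitors of the Erk and Gsk3 pathways (2i). The wild-type group (WT) had 3 libraries. The mutant group, ZFP57 KO (zygotic), had 2 libraries of cells homozygous for a disruption of the coding exons of the KRAB domain and zinc fingers, in which only the zygotic copies are affected. The labels number the lines without saying whether a library is a line of its own, so p-values below measure the spread between these libraries. Total RNA depleted of ribosomal RNA was sequenced in paired reads of 150 bp, and levels are FPKM, fragments scaled to transcript length and library size, which makes them comparable between genes of different length. In bulk RNA, fewer cells that express a gene and less RNA per cell cannot be told apart.

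Meiosis reduces the chromosome number of germ cells. Its chromosomes are held together by meiosis-specific cohesin, paired along their length by the synaptonemal complex, watched over by HORMA domain proteins and joined by recombination. piRNAs are small RNAs bound by Piwi proteins that silence transposons in the germline, and Tudor domain proteins assemble the granules in which they are made. Many genes of both groups are kept silent outside the germline by promoter DNA methylation and by the polycomb complex PRC1.6, whose MGA-MAX and E2F6 subunits are known to bind E-box and E2F motifs, while ES cells in 2i are known for low DNA methylation. ZFP57 itself is a KRAB zinc finger protein that binds a methylated hexanucleotide and recruits TRIM28.

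RefSeq promoter windows of GRCm38.p6, from 250 bases before to 50 bases after a transcription start, were matched to 29 of the 34 genes by symbol. *Rnf17*, *Tex15*, *Piwil2*, *Tdrd6* and *Spo11* had no entry. Stretches before the start of 7 genes are shown, because these genes belong to the group that fell together in the KO, and because they range from several matches of the motifs in capitals to none. Capitals mark the E-box CACGTG and the E2F core TCCCGC, which reads GCGGGA on the other strand, and the sequences run 5′ to 3′ along the gene.
*Hormad1* promoter, chr3:95559427-95559676, plus strand: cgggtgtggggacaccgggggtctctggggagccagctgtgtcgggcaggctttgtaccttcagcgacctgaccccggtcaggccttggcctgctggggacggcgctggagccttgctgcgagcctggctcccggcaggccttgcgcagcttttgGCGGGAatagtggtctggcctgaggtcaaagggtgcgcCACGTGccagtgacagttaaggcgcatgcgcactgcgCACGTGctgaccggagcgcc
*Sycp3* promoter, chr10:88459337-88459566, plus strand: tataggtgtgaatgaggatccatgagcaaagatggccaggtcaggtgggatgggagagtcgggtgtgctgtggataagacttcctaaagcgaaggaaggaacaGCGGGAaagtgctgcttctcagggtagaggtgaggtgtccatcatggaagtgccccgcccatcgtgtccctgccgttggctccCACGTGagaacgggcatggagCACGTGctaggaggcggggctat
*Sycp1* promoter, chr3:102936101-102936350, minus strand: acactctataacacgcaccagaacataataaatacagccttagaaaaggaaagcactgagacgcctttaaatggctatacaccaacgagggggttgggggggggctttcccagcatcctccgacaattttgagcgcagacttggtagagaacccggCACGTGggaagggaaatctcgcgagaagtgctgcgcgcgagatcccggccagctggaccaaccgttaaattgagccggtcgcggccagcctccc
*Mael* promoter, chr1:166238765-166238994, minus strand: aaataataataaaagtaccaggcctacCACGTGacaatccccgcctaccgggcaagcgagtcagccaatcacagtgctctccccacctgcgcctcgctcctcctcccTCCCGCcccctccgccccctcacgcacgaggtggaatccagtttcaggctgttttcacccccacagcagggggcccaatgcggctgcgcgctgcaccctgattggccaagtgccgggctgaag
*Dmc1* promoter, chr15:79605110-79605359, minus strand: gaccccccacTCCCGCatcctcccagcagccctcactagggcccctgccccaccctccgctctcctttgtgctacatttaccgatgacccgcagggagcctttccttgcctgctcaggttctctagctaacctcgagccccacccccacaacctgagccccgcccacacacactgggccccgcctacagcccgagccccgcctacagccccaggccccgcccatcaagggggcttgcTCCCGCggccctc
*Smc1b* promoter, chr15:85131978-85132067, minus strand: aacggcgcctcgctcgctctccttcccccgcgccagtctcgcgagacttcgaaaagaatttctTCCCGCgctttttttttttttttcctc
*Dazl* promoter, chr17:50293641-50293870, minus strand: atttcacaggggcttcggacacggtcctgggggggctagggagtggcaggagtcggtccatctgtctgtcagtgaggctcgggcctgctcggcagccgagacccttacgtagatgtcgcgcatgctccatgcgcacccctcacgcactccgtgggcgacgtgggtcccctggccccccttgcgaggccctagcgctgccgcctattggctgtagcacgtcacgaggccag
*Hormad1* and *Sycp3* each carried a pair of E-boxes close to the start and an E2F core further out. *Mael* and *Sycp1* had 1 E-box and at least 1 E2F core each, that of *Sycp1* lying just after the start and outside the stretch shown, *Dmc1* and *Smc1b* had the E2F core without an E-box, and *Dazl* had neither in its window.

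The libraries were similar in depth. FPKM steps of short RNA genes put them at about 50900000 to 58900000 fragments, so 1 fragment on 1 kb was worth 0.017 to 0.0196 FPKM, and 90.2 to 96.5% of the low values used lay within 0.1 of a whole number of fragments. *Zfp57* read 75.94, 72.34 and 70.55 FPKM in WT 1, 2 and 3 and 19.00 and 21.62 FPKM in KO 1 and 2, a log2 fold change of -1.84 (SE 0.064, adjusted p = 2.34e-04). Transcript from outside the disrupted exons may be counted there. Genes on chromosome 11 were lower in the KO as a whole (825 of 1224 tested called lower, median log2 fold change -0.47). *Hormad2* and *Tex14* lie on that chromosome. ES cell markers were present in every library, led by *Dppa5a* at 280 to 302 FPKM, and of 11 tested 6 were called higher and 0 lower in the KO, against 18.8% higher and 22.3% lower of all tested genes.

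Most of the 34 genes were transcribed at low levels in WT cells. *Rnf17*, a Tudor domain protein of male germ cells, was highest at 30.0 ± 0.869 FPKM (SD, n = 3), followed by *Hormad1*, *Syce2*, *Tex14* and *Hormad2*. A mean of at least 1 FPKM was reached by 17 genes, while 6 stayed under 0.1 FPKM. Summed over the 34 genes, WT libraries held 147, 139 and 157 FPKM and KO libraries 84.4 and 85.4 FPKM. Without *Rnf17* the sums were 118 ± 7.83 FPKM (SD, n = 3) in WT and 53.7 ± 0.248 FPKM (SD, n = 2) in KO cells.

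**Figure D1:**
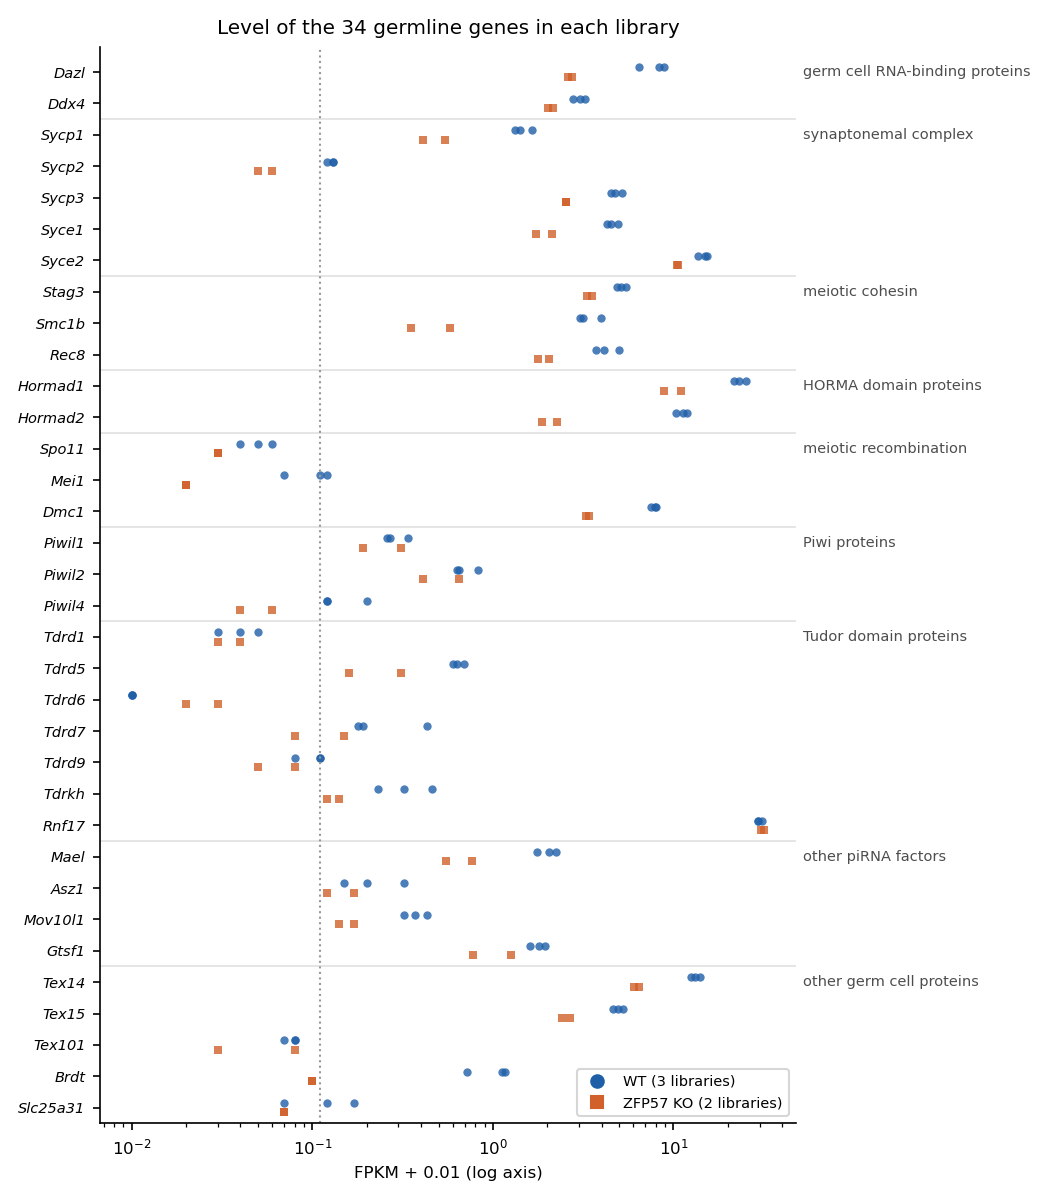
FPKM + 0.01 on a log axis for the 34 genes, grouped by role, with each WT library as a blue circle and each KO library as an orange square. The dotted line is the filter of 0.1 FPKM for the mean over the 5 libraries, and in 21 of the 25 genes that passed it both squares lie left of all circles.

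The loss of ZFP57 was accompanied by lower levels of most of these genes. A mean of at least 0.1 FPKM over the 5 libraries was required for the test, which 25 of the 34 genes met. With limma on log2(FPKM + 0.1) and Benjamini-Hochberg adjustment over all 14612 tested genes, 20 of the 25 were called lower in the KO at an adjusted p under 0.05, 5 were not called and 0 were called higher. Over all tested genes 22.3% were called lower and 18.8% higher. The median log2 fold change of the 25 was -0.93, against -0.01 over all tested genes. Both KO libraries lay below all WT libraries in 21 of the 25, against 33.1% of all tested genes, and 14 of the 25 were called lower with a KO mean under 50% of the WT mean, against 6.84%. Away from chromosome 11, 18 of 23 were called lower.

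Among the 20 called genes the KO mean was 9.09 to 72.1% of the WT mean, with a median of 42.3%. The 2 KO libraries were alike: KO 1 was the lower one in 11 of the 20, and they differed by a median of 0.16 and at most 0.68 on the log2 scale. Of the 17 genes with a WT mean of at least 1 FPKM, 16 were called lower and *Rnf17* was not. Of the 8 tested genes under 1 FPKM, 4 were called lower. With only genes averaging at least 1 FPKM over the 5 libraries tested, 22.4% of all genes were called lower. No share of all genes was worked out for those under 1 FPKM. The WT level that splits the genes here also enters their fold change. Counts by role below stand beside the 22.3% of all tested genes called lower. The wide intervals of *Tdrd7*, *Asz1*, *Piwil1* and *Piwil2* cover both no change and a fall as large as that of some called genes. *Asz1* rested on few fragments, about 14 to 30 per WT library and 10 and 15 in KO 1 and 2. *Piwil2* had more, about 212 to 258 per WT library and 130 and 218 in KO 1 and 2. Fold changes on this scale understate the change of low genes.

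**Figure D2:**
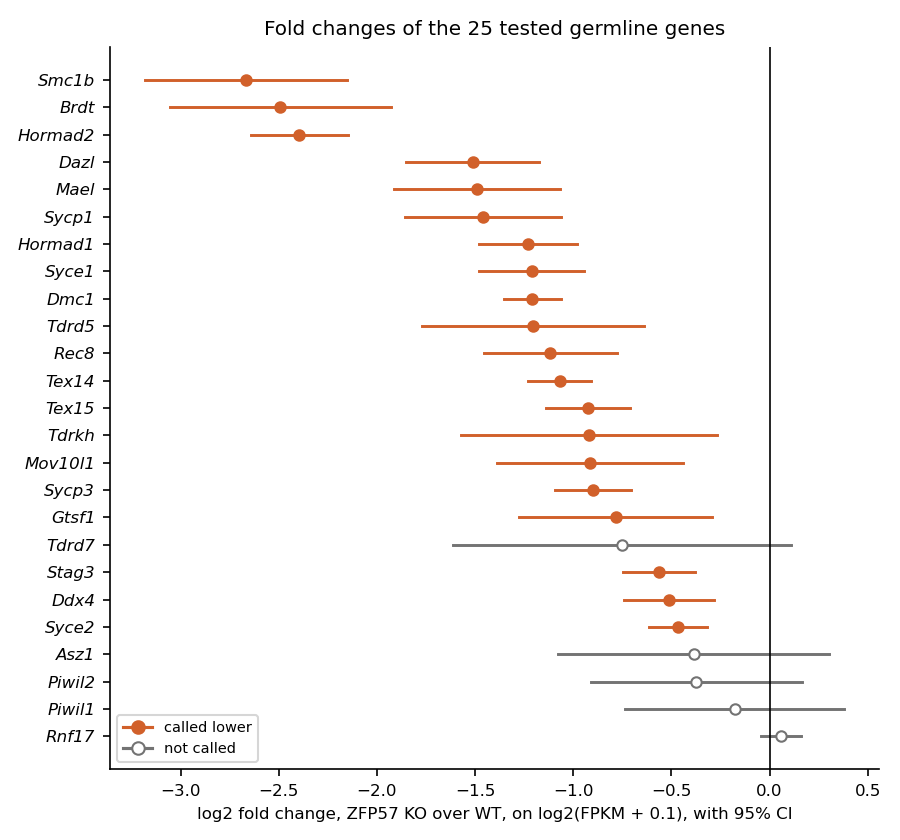
Log2 fold change of ZFP57 KO over WT with its 95% confidence interval from limma for the 25 tested genes, ordered from the lowest. Filled orange points are the 20 genes called lower and open grey points the 5 not called, with *Smc1b* lowest at -2.67 and *Rnf17* highest at 0.06.

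Both germ cell RNA-binding proteins were lower. *Dazl*, which controls translation in germ cells and licenses them for meiosis, read 8.34, 6.41 and 8.84 FPKM in WT 1, 2 and 3 and 2.75 and 2.59 FPKM in KO 1 and 2. Every KO value was under 50% of the lowest WT value, and the log2 fold change was -1.51 (SE 0.14, adjusted p = 7.71e-04). *Ddx4*, the germ cell RNA helicase also called Vasa, stood at 3.01, 2.77 and 3.21 FPKM in WT and 2.01 and 2.13 FPKM in KO cells. The groups did not overlap, but the fall was only 0.51 on the log2 scale (SE 0.094, adjusted p = 0.00751).

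All 4 tested components of the synaptonemal complex fell. *Sycp1*, the transverse filament that zips paired chromosomes together, went from 1.63, 1.31 and 1.41 FPKM in WT to 0.40 and 0.53 FPKM in KO libraries (log2 fold change -1.46, SE 0.163, adjusted p = 0.00136). *Sycp3*, a lateral element protein, showed 5.15, 4.51 and 4.75 FPKM against 2.52 and 2.53 FPKM (log2 fold change -0.90, SE 0.08, adjusted p = 7.06e-04). These 2 genes had the same order of groups, with the KO libraries of *Sycp3* almost equal. The central element genes differed more from each other. *Syce1* dropped from 4.30, 4.48 and 4.92 FPKM to 1.73 and 2.11 FPKM (log2 fold change -1.21, SE 0.11). *Syce2*, the most abundant gene of the complex, read 15.40, 13.66 and 14.88 FPKM in WT and 10.62 and 10.51 FPKM in KO cells, the smallest fall among the 20 called genes on this scale (log2 fold change -0.47, SE 0.061, adjusted p = 0.00223). The other lateral element gene, *Sycp2*, was under the filter at 0.11 to 0.12 FPKM in WT and 0.04 to 0.05 FPKM in KO libraries.

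The 3 meiotic cohesin genes fell to different extents. *Smc1b*, at chr15:85064689-85131957, encodes the meiosis-specific SMC subunit and had the lowest log2 fold change of the set on this scale, but not in every setting. With a pseudocount of 0.01 *Brdt* was lowest (-3.29, against -2.90 for *Smc1b*), with a pseudocount of 1 *Hormad2* was below *Smc1b* (-1.59), and without KO 2 both *Hormad2* (-2.53) and *Brdt* (-2.49) were below *Smc1b* (-2.37). *Smc1b* read 3.02, 3.15 and 3.96 FPKM in WT and 0.57 and 0.34 FPKM in KO libraries, 13.5% of the WT mean (log2 fold change -2.67, SE 0.212, 95% CI -3.18 to -2.16, adjusted p = 5.65e-04). Its annotated span overlaps that of *Fam118a*, which did not share the fall (7.42 FPKM in WT and 9.68 FPKM in KO cells on average). *Rec8*, the meiotic kleisin that is cleaved when chromosomes part, gave 4.12, 3.70 and 4.99 FPKM against 1.77 and 2.04 FPKM (log2 fold change -1.12, SE 0.14, adjusted p = 0.00195). *Stag3*, the meiotic STAG subunit, gave 5.42, 4.87 and 5.09 FPKM against 3.32 and 3.55 FPKM (log2 fold change -0.56, SE 0.075, adjusted p = 0.00238). The intervals of *Smc1b* and *Stag3* did not overlap. *Stag3* overlaps *Gpc2* and *Gal3st4*, *Sycp3* overlaps *Chpt1*, and *Syce2* overlaps *Gcdh*. Whether the counting used strand is not given in the sources used here, so reads may be shared between the genes of each pair.

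HORMA domain proteins coat unpaired chromosome axes. *Hormad1* was the second most abundant gene of the set and read 21.71, 23.16 and 25.10 FPKM in WT against 10.99 and 8.87 FPKM in KO libraries (log2 fold change -1.23, SE 0.103, adjusted p = 6.19e-04). *Hormad2*, at chr11:4345801-4441198, fell further, from 11.29, 10.34 and 11.92 FPKM to 1.85 and 2.25 FPKM (log2 fold change -2.40, SE 0.102, 95% CI -2.64 to -2.15, adjusted p = 2.72e-04). That was 18.3% of the WT mean and well beyond the median of its chromosome. With the median of each chromosome subtracted from each library, the log2 fold change of *Hormad2* was -1.92 and that of *Tex14* -0.59, and both calls held.

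*Dmc1*, the meiotic strand exchange protein, was the only tested gene of the recombination group. Its replicates were tight, with 7.92, 7.54 and 8.01 FPKM in WT and 3.40 and 3.26 FPKM in KO libraries (log2 fold change -1.21, SE 0.06, 95% CI -1.35 to -1.06, adjusted p = 3.16e-04). *Spo11*, which makes the meiotic double-strand breaks, stayed at 0.03 to 0.05 FPKM in WT and 0.02 FPKM in both KO libraries, and *Mei1*, which acts with it, at 0.06 to 0.11 FPKM in WT and 0.01 FPKM in KO libraries. These levels were too low for the test. Both KO values lay below all WT values in the 2 genes, as in 33.1% of all tested genes. *Spo11* rested on about 3 to 5 fragments per WT library and 2 per KO library, so its order of groups carries little weight. *Mei1* rested on about 14 to 23 and 2 fragments.

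In the piRNA pathway, neither tested Piwi gene was called. *Piwil1*, the Piwi protein of meiotic and later male germ cells, read 0.33, 0.25 and 0.26 FPKM in WT and 0.18 and 0.30 FPKM in KO libraries (log2 fold change -0.18, 95% CI -0.73 to 0.38, adjusted p = 0.571). *Piwil2*, which makes piRNAs in fetal and adult germ cells, read 0.62, 0.64 and 0.82 FPKM against 0.40 and 0.64 FPKM (log2 fold change -0.37, 95% CI -0.91 to 0.16, adjusted p = 0.222). In both genes KO 1 lay below the WT range and KO 2 inside it. *Piwil4*, the nuclear Piwi protein of fetal male germ cells, did not reach the filter, with 0.11, 0.11 and 0.19 FPKM in WT and 0.05 and 0.03 FPKM in KO libraries.

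Tudor domain genes divided. *Rnf17* held its level, at 29.57, 29.43 and 31.00 FPKM in WT and 30.60 and 31.89 FPKM in KO libraries (log2 fold change 0.06, 95% CI -0.04 to 0.16, adjusted p = 0.314). Its interval was the narrowest of the 5 genes not called. *Tdrd5*, needed for piRNA processing, was 0.62, 0.68 and 0.59 FPKM in WT and 0.30 and 0.15 FPKM in KO libraries (log2 fold change -1.21, SE 0.234, adjusted p = 0.00896). *Tdrkh*, a mitochondrial scaffold that binds Piwi proteins, was 0.31, 0.22 and 0.45 FPKM against 0.11 and 0.13 FPKM (log2 fold change -0.92, SE 0.269, adjusted p = 0.036). That call was lost in 8 of the 13 alternative settings that tested the gene, among them the removal of WT 1, WT 3, KO 1 or KO 2, with adjusted p from 0.0833 to 0.129. *Tdrd7* had both KO values of 0.07 and 0.14 FPKM below the WT values of 0.17, 0.18 and 0.42 FPKM, but WT 3 stood apart from the other two and the gene was not called (log2 fold change -0.75, 95% CI -1.61 to 0.11, adjusted p = 0.139). The Tudor domain genes *Tdrd1*, *Tdrd6* and *Tdrd9* were at or under 0.10 FPKM in all libraries. *Tdrd6* was listed at 0 in all 3 WT libraries but read 0.01 FPKM in KO 1 and 0.02 FPKM in KO 2.

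Of the 4 other piRNA factors, 3 were called lower. *Mael*, a granule protein required for transposon silencing in the testis, went from 2.03, 1.74 and 2.22 FPKM to 0.54 and 0.76 FPKM (log2 fold change -1.49, SE 0.174, adjusted p = 0.00152). *Gtsf1*, a zinc finger cofactor of Piwi proteins, had 1.78, 1.6 and 1.93 FPKM against 0.77 and 1.25 FPKM (log2 fold change -0.78, SE 0.202, adjusted p = 0.024). The *Gtsf1* call was lost without WT 1, WT 3 or KO 1 (adjusted p = 0.0672, 0.0773 and 0.07), and its log2 fold change was -0.47 without KO 1. *Mov10l1*, the helicase that starts piRNA processing, had 0.42, 0.31 and 0.36 FPKM against 0.16 and 0.13 FPKM (log2 fold change -0.92, SE 0.195, adjusted p = 0.0124), and its adjusted p rose to 0.0579 without KO 2. *Asz1*, a mitochondrial protein of piRNA biogenesis, was not called (0.31, 0.14 and 0.19 FPKM against 0.11 and 0.16 FPKM, log2 fold change -0.39, adjusted p = 0.319). Its groups overlapped.

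The remaining germ cell genes act at other steps of gametogenesis. *Brdt*, a bromodomain protein of the testis that binds acetylated histones, kept the smallest share of its level, with 1.15, 0.71 and 1.11 FPKM in WT and 0.09 FPKM in both KO libraries, 9.09% of the WT mean (log2 fold change -2.49, SE 0.232, adjusted p = 7.86e-04). *Tex14*, which keeps the bridges between dividing germ cells open, read 13.11, 12.42 and 14.09 FPKM against 6.40 and 6.07 FPKM (log2 fold change -1.07, SE 0.067, adjusted p = 3.73e-04, and -0.59 with the median of chromosome 11 subtracted). *Tex15*, required for meiotic recombination and for piRNA-directed silencing, read 4.89, 4.59 and 5.23 FPKM against 2.40 and 2.67 FPKM (log2 fold change -0.93, SE 0.088, adjusted p = 8.34e-04). In none of these 3 genes did the groups overlap. *Tex101* and *Slc25a31*, a surface protein and an ADP/ATP carrier of male germ cells, were at 0.06 to 0.16 FPKM in WT and 0.02 to 0.07 FPKM in KO libraries, under the filter. When the filter was dropped and all 34 genes were tested, 3 of the 9 genes under it, *Sycp2*, *Mei1* and *Piwil4*, were called lower, against 3169 of the 19757 genes tested in that setting.

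Further genes of the same or related processes were taken from lists of meiosis genes and piRNA genes that share no member with the 34. These lists were also drawn up with earlier results known. Of 25 tested meiosis genes, 14 were called lower and 0 higher, against 22.3% lower and 18.8% higher of all tested genes, with a median log2 fold change of -0.72. *Stra8*, which starts the meiotic programme in response to retinoic acid, read 13.45, 14.96 and 21.04 FPKM in WT and 1.64 and 1.43 FPKM in KO libraries (log2 fold change -3.32, SE 0.187, adjusted p = 3.27e-04). *Boll*, a relative of *Dazl*, read 4.18, 4.01 and 3.59 FPKM against 0.46 and 0.30 FPKM (log2 fold change -3.09, SE 0.166). On this scale both fold changes were lower than any of the 34. By the group means *Brdt* (9.09% of WT), *Stra8* (9.31%) and *Boll* (9.68%) kept nearly the same share. Their order is not resolved, since both KO values of *Brdt* are 0.09 FPKM at 2 decimals. *Tex11*, a crossover protein (-1.42), and *4930447C04Rik* (-1.36) fell too, whereas 11 tested genes of the list were not called. *Psmc3ip* and *Cntd1*, also called lower, lie on chromosome 11, where 67.4% of tested genes were called lower. With the median of each chromosome subtracted from each library, 14 genes of the list were called lower.

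Of 16 other piRNA genes tested, 9 were called lower and 1 higher (median log2 fold change -0.79), beside the same 22.3% and 18.8% of all tested genes. The list was drawn wide. It also holds the RNA-binding protein genes *Dnd1* and *Nanos3* and the helicase genes *Ddx25* and *Mov10*, which are not core piRNA factors. *Dnd1* and *Ddx25* were among those called lower. *Gpat2*, a mitochondrial protein of piRNA biogenesis, fell from 2.72, 2.79 and 2.94 FPKM to 0.92 and 0.49 FPKM (log2 fold change -1.91, SE 0.226). *Tdrd12*, a Tudor domain helicase and the most abundant of the called piRNA genes, read 29.66, 33.55 and 36.50 FPKM against 18.67 and 10.28 FPKM (log2 fold change -1.25, SE 0.237, adjusted p = 0.00824), with the KO libraries unequal and a log2 fold change of -0.82 without KO 2. *Stk31* (-1.49) and *Tex19.1* (-1.57, and -1.09 with the median of its chromosome 11 subtracted) also fell. *Pld6* and *Tex19.2*, called lower as well, lie on the same chromosome as *Tex19.1*, where 67.4% of tested genes were called lower. With the median of each chromosome subtracted from each library, 9 genes of the list were called lower. The exception was *Fkbp6*, a cochaperone of piRNA loading, which rose from 3.74, 3.28 and 3.20 FPKM to 5.28 and 6.91 FPKM (log2 fold change 0.81, SE 0.131, adjusted p = 0.00461). The paper counts *Fkbp6* among the imprinting control regions, which govern expression by parental origin. It reports a loss of H3K9 methylation and TRIM28 binding there, of varying degree, in ZFP57 KO cells. Whether this bears on the rise was not tested. The cumulative plot shows both lists beside the 34 genes.

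**Figure D3:**
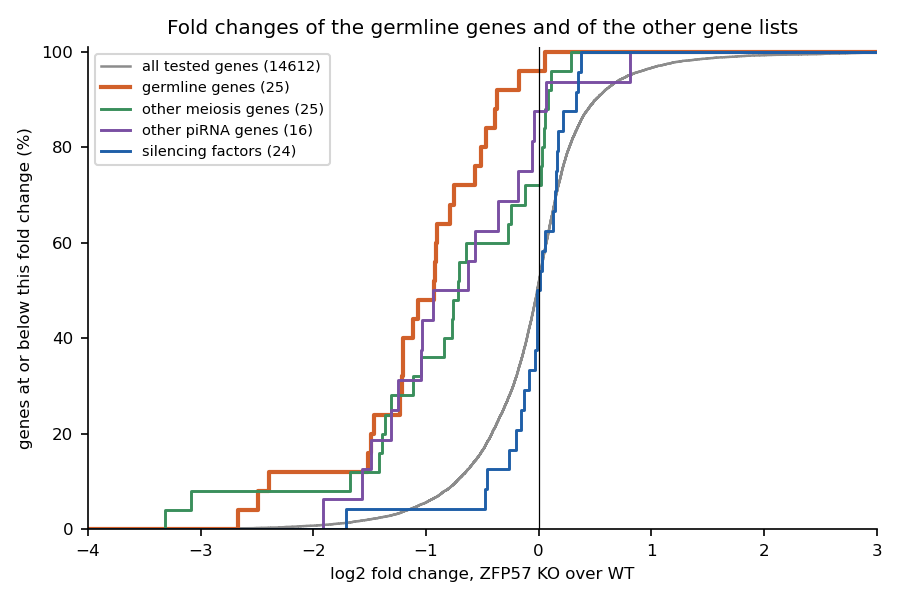
Cumulative share of genes, in percent, against the log2 fold change of ZFP57 KO over WT for the 25 tested germline genes, 25 other meiosis genes, 16 other piRNA genes, 24 silencing factors and all 14612 tested genes. The germline curve and the meiosis and piRNA curves lie to the left, with medians of -0.93, -0.72 and -0.79, and the curves of the silencing factors and of all genes cross the middle near 0.

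The factors known to silence germline genes were tested as a list of 24, made of PRC1.6 subunits, DNA methylation and H3K9 methylation factors and the further chromatin repressors *Kdm5c* and *Smchd1*. Of these 4 were called lower, 9 higher and 11 were not called, and the fold change was below 0 in 12. That is 16.7% called lower, against 22.3% of all tested genes, while 18.8% of all tested genes were called higher. The count of 9 was 4 without WT 1, without WT 3 or without KO 2. *Dnmt3a*, a de novo DNA methyltransferase, fell from 10.42, 9.21 and 10.99 FPKM to 3.25 and 2.84 FPKM (log2 fold change -1.71, SE 0.097, adjusted p = 3.27e-04). *L3mbtl2*, a PRC1.6 subunit, fell by 0.46, *Hdac1*, a histone deacetylase, by 0.20 and *Trim28* by 0.16 on the log2 scale, and *Trim28* was no longer called without WT 3 (adjusted p = 0.055) or without KO 2 (0.0544). *Cbx3* (0.38, and 0.21 with the median of its chromosome subtracted), *Tfdp1* (0.35), *Ehmt2* (0.33) and *Uhrf1* (0.22) rose, and they encode a heterochromatin protein, an E2F partner, an H3K9 methyltransferase and a partner of maintenance methylation. The DNA-binding subunits *E2f6* (log2 fold change 0.06, 95% CI -0.09 to 0.20), *Mga* (-0.02, 95% CI -0.12 to 0.09) and *Max* (0.01, 95% CI -0.10 to 0.12) were not called. They are singled out here after their values were seen, for the motifs searched below.

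Markers of other cells were read beside these results, and their counts stand against 22.3% of all tested genes called lower and 18.8% called higher. Of 14 spermatid markers, 13 were under the filter, *Prm1*, *Prm2*, *Tnp1* and *Akap4* were listed at 0 in all 5 libraries, and the highest, *Ldhc*, was at 0.48 to 0.81 FPKM in WT and 0.22 to 0.28 FPKM in KO libraries and was called lower (log2 fold change -0.96, adjusted p = 0.0246), but not without KO 1 (adjusted p = 0.111) or without KO 2 (adjusted p = 0.067). Their sum was 0.61 to 1.06 FPKM in WT and 0.42 to 0.45 FPKM in KO libraries. Of 12 oocyte markers 9 were under the filter, and *Zp3*, of the egg coat, was highest at 4.55 to 5.23 FPKM in WT and 3.31 to 4.19 FPKM in KO libraries. Of the 3 tested oocyte markers 2 were called lower, *Zp3* (log2 fold change -0.40, adjusted p = 0.0376) and *Padi6* (-0.86, adjusted p = 0.0481), and *Zp3* was no longer called without WT 2, WT 3 or KO 2 (adjusted p = 0.109, 0.103 and 0.159). Of 8 primordial germ cell markers, many of which ES cells also express, 7 had a log2 fold change below 0 (median -0.39), 4 were called lower, among them *Dppa3* at -2.31 and *Dnd1* at -1.04, and 1 was called higher. *Dnd1* and *Nanos3* stand in the list of other piRNA genes too, so the counts of both lists include them. The 1 that rose, *Ifitm3*, was also the most abundant (39.90, 39.56 and 37.60 FPKM in WT and 51.08 and 59.37 FPKM in KO libraries). Fibroblast markers summed to 0.63 to 0.70 FPKM in WT and 0.53 to 0.94 FPKM in KO libraries, with *Pdgfrb* the highest, and 2-cell stage markers to 2.01 to 3.27 and 1.33 to 2.16 FPKM, with *Zscan4f* the highest. Neither list had a called gene, although *Pdgfrb* was called without KO 1 (adjusted p = 0.0455) and *Zscan4f* without WT 2 (0.036). Endoderm and trophoblast markers summed to 1.37 to 1.79 FPKM in WT and 4.68 to 4.87 FPKM in KO libraries, with 3 of 6 tested higher, led by *Eomes* (log2 fold change 2.00). *Dppa3*, *Dnd1*, *Nanos3* and *Padi6* are named after their values were seen. The part of these cells in the fall of the germline genes was not tested.

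In the 29 promoter windows, the E-box CACGTG was found in 12 (41.4%), against 7.24% of all 27025 windows with 1 window per gene and 10.3% of the 10426 windows of tested genes. The E2F core TCCCGC, on either strand, was in 13 (44.8%), against 20.1% and 35.9%. Both motifs were in 7 windows (24.1%, against 2.05% and 3.93%), and in none of these windows did an E-box and an E2F core overlap. TGCCGC, the ZFP57 hexanucleotide, was in 7 (24.1%), against 11.6% and 19.4%. CpG content was like that of tested genes, with a median of 19 CpG per window (21 over tested genes and 7 over all windows) and a median observed over expected ratio of 0.704 (0.759 and 0.389). Among the 19 windows of called genes, 8 held the E-box and 12 the E2F core, and among the 10 other windows 4 and 1. Of those 10, 7 belong to genes under the filter, so this split separates the genes by level as well as by change. *Hormad2*, *Tdrkh* and *Gtsf1* were called lower with none of the 3 motifs, and *Piwil1* has 2 E-boxes and was not called. A match of 6 letters is a description of the sequence and not a binding site.

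**Figure D4:**
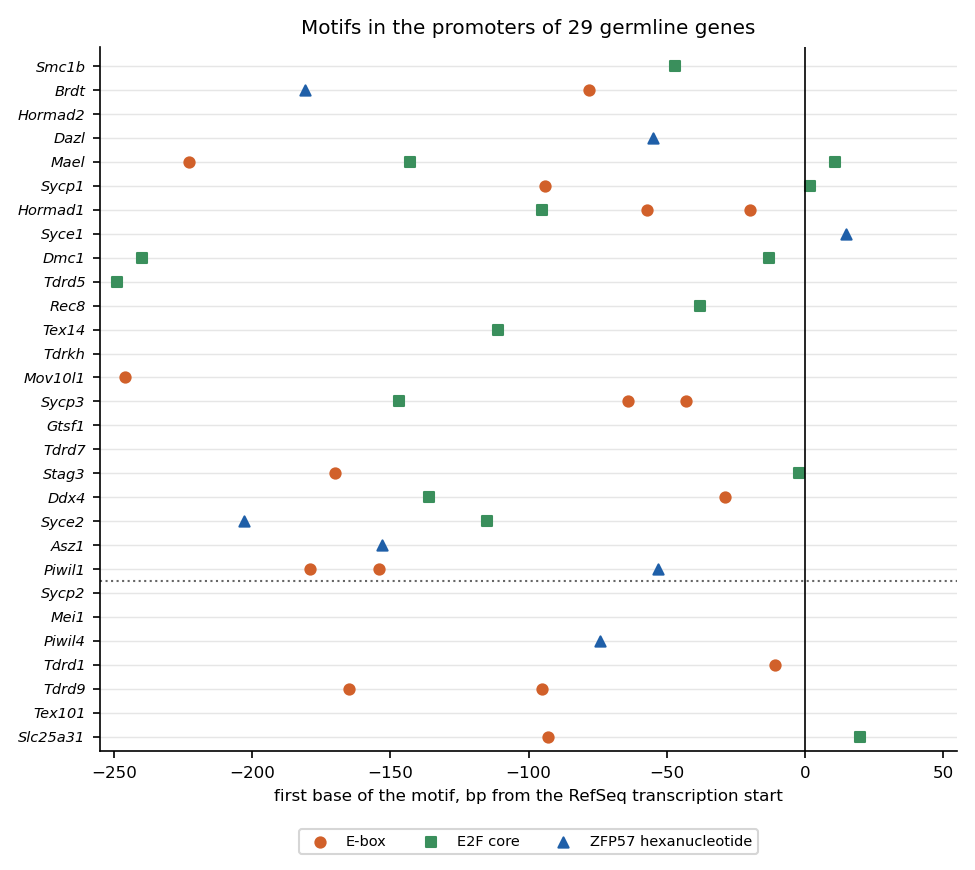
Distance in bp from the RefSeq transcription start to the first base of each E-box (circle), E2F core (square) and ZFP57 hexanucleotide (triangle) in the promoter windows of 29 genes, ordered by log2 fold change with the lowest at the top. Genes under the dotted line were not tested. 12 genes carry an E-box and 13 an E2F core.

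The windows follow the start given by RefSeq, and for *Stag3* and *Mei1* it lies 7995 and 12402 bases inside the annotated span of the gene, so their windows may not be the start used in these cells.

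ZFP57 binding near the genes was read from the list of 1423 peaks of the WT C57BL/6J lines. None of the 34 genes had a peak within 20 kb of its span, against 1032 of 24288 placed genes (4.25%), and none had one within 5 kb. Within 50 kb there were 2, *Stag3* with a peak at chr5:138334439-138334656, 22042 bp away, and *Tex15* with one at chr8:33487266-33488108, 28581 bp away, against 8.11% of all placed genes. The median distance to the nearest peak was 521546 bp. The list holds no signal under the authors' threshold, so weaker binding was not analysed here.

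The nearest tested genes on both sides of the 20 called genes were compared with them. Of these 40 neighbours 11 were called lower (27.5%), 7 higher and 22 were not called, with a median log2 fold change of -0.09. Over all tested genes 22.3% were lower and 18.8% higher, so the neighbours were near the background. Of the 40, 3 fell further than their germline neighbour. The germline genes compared were chosen for being called lower, so a low count follows largely from that choice. *Ipo4*, which lies 5 bp from *Rec8*, had a log2 fold change of -0.09, and *Golph3l*, 1052 bp from *Hormad1*, one of -0.03, while neither was called. *Rad51c*, 59 bp from *Tex14* on chromosome 11, fell by 1.00 on the log2 scale, close to the fall of *Tex14*. The neighbours were looked at, and those named were chosen, after the values of the germline genes had been seen.

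**Figure D5:**
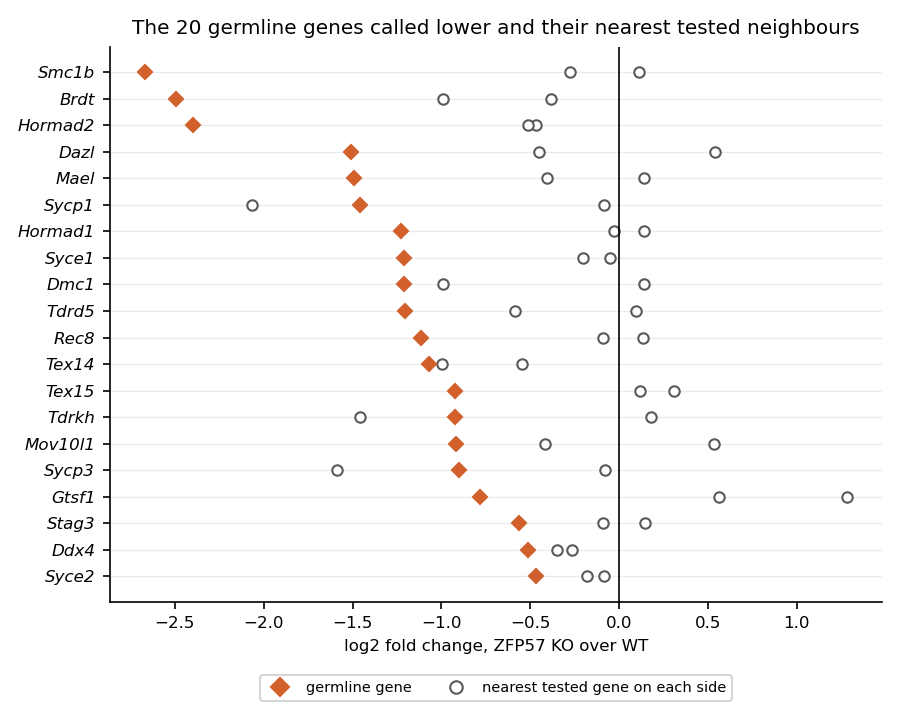
Log2 fold change of ZFP57 KO over WT for the 20 germline genes called lower (orange diamonds) and for the nearest tested gene on each side (open circles). Most circles lie near 0, with a median of -0.09, and 3 lie left of their diamond, beside *Sycp1*, *Sycp3* and *Tdrkh*.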

How the data were processed

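RNA-seq levels were analysed in 3 WT and 2 ZFP57 KO ES cell libraries. The authors deposited FPKM per gene with 2 decimals, on build mm10. The submitters' processing notes name FastQC 0.11.5, Trim Galore 0.2.7, BWA 0.6.2, Picard, MACS2 2.1.0 and STAR 2.5.2. Which tool made which file, the counting and the annotation are not given in the sources used here. Counts were not used here. Peaks were deposited as other values, the start and end positions of intervals called in at least 2 WT replicates, without a score. The list named for hybrid lines was used as an alternative only.

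The test was limma 3.58.1 on log2(FPKM + 0.1), for genes averaging 0.1 FPKM or more (eBayes with trend, R 4.3.3), adjusted by Benjamini-Hochberg, with a threshold of 0.05. An exact permutation test of 3 against 2 libraries cannot go below p = 0.1. Positions on GRCm38 were found by symbol for 23192 of the 24409 genes and by synonym for 1096, while 108 had no match and 13 several. Motifs were searched on both strands in 1 RefSeq window per gene, that of the most upstream start given. On simulated libraries of 14611 genes with 200 changed by 0.5, 1 or 2 on the log2 scale, the test recovered 29, 70.5 and 90%, and called 1, 6 and 8 other genes. With none changed, 14610 genes gave 0 calls.

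The members and lists were chosen with earlier results of these data known. Named beside the 34 genes were the 4 lowest and 4 highest called genes of each list, those of meiosis and piRNA lists with a mean of at least 1 FPKM and groups that do not overlap, *Zfp57*, and the most abundant gene of each marker list. Other genes, and the promoters printed, were chosen after their values were seen. Alternatives covered pseudocounts, filters, scaling, chromosome medians, the variance model, a replicate block, a stricter threshold, single libraries, peak windows and the hybrid list. Figures were drawn with matplotlib 3.10.9 in Python 3.11.15.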

Additional observations from a re-analysis of the deposited data

How the results depend on the processing

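Of the 20 germline genes called lower, 16 kept the call in every alternative setting that tested them, and 17 with each library left out in turn. The exceptions over all settings were *Ddx4*, *Tdrkh*, *Mov10l1* and *Gtsf1*. The count of germline genes called lower was within 1.5 times of 20 under all 14 alternatives, and none was called higher. Under the filter of 1 FPKM, 17 of the genes were tested and 16 called lower, against 22.4% of the 10664 genes tested, and 8 of the 12 other meiosis genes tested there were called lower. All genes called numbered 6002, and 3291 at a threshold of 0.01.

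The median log2 fold change of the germline genes was -1.16 with a pseudocount of 0.01, -0.72 with a pseudocount of 1, -0.78 without a filter and -1.12 with the filter of 1 FPKM. With single libraries left out it ranged from -1.11 to -0.92. Silencing factors called higher numbered 4 at the threshold of 0.01 and 4 without the trend in eBayes, and 4 to 6 with single libraries left out.

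The labels give WT and KO libraries the same numbers without saying that a number marks a shared litter or day. Deviations of libraries with the same number correlated at -0.07 and -0.04, and those with different numbers at -0.03 to 0.07, so the numbers were not taken as pairs. With a replicate block over the 4 libraries that share numbers and the lone WT 3, 3012 genes were called, 11.2% of the tested genes were lower, 16 germline genes were lower, and silencing factors numbered 2 lower and 2 higher.

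The log2 fold change of *Piwil1* turned positive without KO 1, with a range of -0.434 to 0.08 over single libraries left out. That of *Dppa5a* turned to 0.001 under median-ratio scaling and 0.018 with the replicate block, and ranged from -0.037 to 0.018 with single libraries left out, above 0 without WT 3 or KO 1. None of these was called, and the cause was not tested. Within 50 kb of a ZFP57 peak lay 2 of the 34 genes. Of 675 values of single genes under the alternatives, 631 kept direction and call.

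Depth limits the lowest genes, such as *Spo11* with about 3 to 5 fragments per WT library, for which 1 fragment is a visible share of the level. The number of fragments also depends on transcript length. *Brdt*, with a WT mean under 1 FPKM, had about 210 to 319 fragments per WT library, and *Gtsf1*, above 1 FPKM, about 68 to 71.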

Other observations

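Genes of the primordial germ cell and ES cell marker lists that are named here after their values were seen moved in both directions. *Dppa3*, a factor of primordial germ cells and of the egg, read 24.21, 35.55 and 36.97 FPKM in WT and 9.04 and 4.43 FPKM in KO libraries (log2 fold change -2.31, limma adjusted p = 0.00266). *Prdm14* and *Tfap2c*, transcription factors that specify germ cells, fell by 0.43 and 0.44 on the log2 scale. *Lin28a* (0.89), *Klf4* (0.74), *Tfcp2l1* (0.60) and *Esrrb* (0.42), which are regulators active in ES cells, rose. *Nanog* (-0.11), *Sox2* (-0.04) and *Zfp42* (0.06) were not called.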
